A study of Homo sapiens with 6 samples.

Results

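The 36 genes described here encode the core machinery of apoptosis: BCL2 relatives, caspases, the apoptosome and other mitochondrial death factors, the inhibitor of apoptosis proteins, and death receptors with their adaptors. They were chosen by name from the 19488 gene symbols of the exon array, and not by a cut on their measured values. Earlier results of these data were known at that choice. Each gene was read by the probe sets that carry its symbol alone. They account for 723 of the 1408285 probe sets in the deposited table. RNA came from Huh-7, a human hepatoma cell line. One group was kept in 0.5 mM amiloride, a potassium-sparing diuretic, for 24 hours, and the other was left untreated. Each group had 3 arrays, labelled as biological replicates and numbered 1 to 3. The amiloride stock was made up in DMSO, and whether the untreated cells received DMSO is not given in the sources used here. The study used the arrays to ask which transcripts were spliced differently under the drug.

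Cells die by apoptosis along a mitochondrial and a death receptor route. In the mitochondrial route, BH3-only proteins such as BIM, the product of BCL2L11, release BAK1 and its relatives from BCL2, BCL2L2 and MCL1, the outer membrane becomes leaky, and cytochrome c (CYCS) joins APAF1 to activate caspase-9. DIABLO, also called SMAC, leaves the mitochondria at the same time and displaces the inhibitor of apoptosis proteins from caspases. In the death receptor route, TNFRSF10A or TNFRSF1A recruits FADD or TRADD, and caspase-8 or caspase-10 is activated unless CFLAR prevents it. Hepatocytes are cells in which death receptor signalling commonly needs BID to engage the mitochondria as well.

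Values were deposited as dChip intensities, 1 per probe set, and were taken to log2 with values below 1 set to 1. A gene's level on an array was the median over its probe sets whose mean log2 value over the 6 arrays reached the median of all probe sets, 2.80, and at least 3 such probe sets were required. All 36 genes met this, with 631 probe sets kept, between 4 for BIK and HRK and 97 for BIRC6. To read splicing, the gene's level on an array was subtracted from each of its probe sets there, which gives the splicing index. All differences are amiloride minus untreated on the log2 scale, so that 1 is 2-fold. Different probes bind differently, so no apoptosis gene's level is set against another's. The rank of cell type markers among all genes, given below, does compare genes and is only rough for that reason.

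The arrays differed in overall brightness, with median intensities of 4.71 to 12 on the amiloride arrays and 5.08 to 13.1 on the untreated ones, and replicate 1 was the brightest of both groups. The untreated replicate 1 array stood apart, with a correlation of gene levels to the other 5 arrays of 0.643 to 0.723. Among hepatocyte markers, 8 of 10 were measured and each lay above at least 82.4% of all genes even on its lowest array, while the 9 measured leukocyte, fibroblast and endothelial markers lay above at most 38.8% of genes there. The intensities come from whole dishes of cells, so fewer cells of a kind and less RNA per cell cannot be told apart, and the p-values below measure only the spread between these arrays.

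No gene of the 36 passed the test for a difference between amiloride-treated and untreated cells. With limma and Benjamini-Hochberg adjustment over 17018 genes, 0 of 36 had an adjusted p below 0.05, where 0.0118% of all genes were called higher and 0% lower. The smallest adjusted p among the 36 was 0.9999. At an unadjusted p below 0.05 the count was also 0, against 1.63% of all genes higher and 0.0705% lower. The fit assigned every gene the same standard error, 0.687, so its 95% intervals reach 1.35 to either side. The differences of the 36 ranged from -0.56 to 1.26, with a median of 0.09 beside 0.07 over all genes, and 20 of the 36 lay above that median of all genes.

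Same-numbered arrays of the groups were alike in brightness, and taking that number into the fit as a block gave smaller errors, with a median standard error of 0.271 over the 36 genes. In that fit again 0 of 36 passed adjustment (0% of all genes in either direction), with a smallest adjusted p of 0.158 in limma. Unadjusted p-values below 0.05 were reached by BCL2L11, DIABLO, BIRC2 and BCL2L13, all higher under amiloride, which is 11.1% of the 36 against 13.6% of all genes. No member reached it in the lower direction, against 1.6% of all genes. The share among the apoptosis genes was thus close to the share on the whole array.

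**Figure D1:**
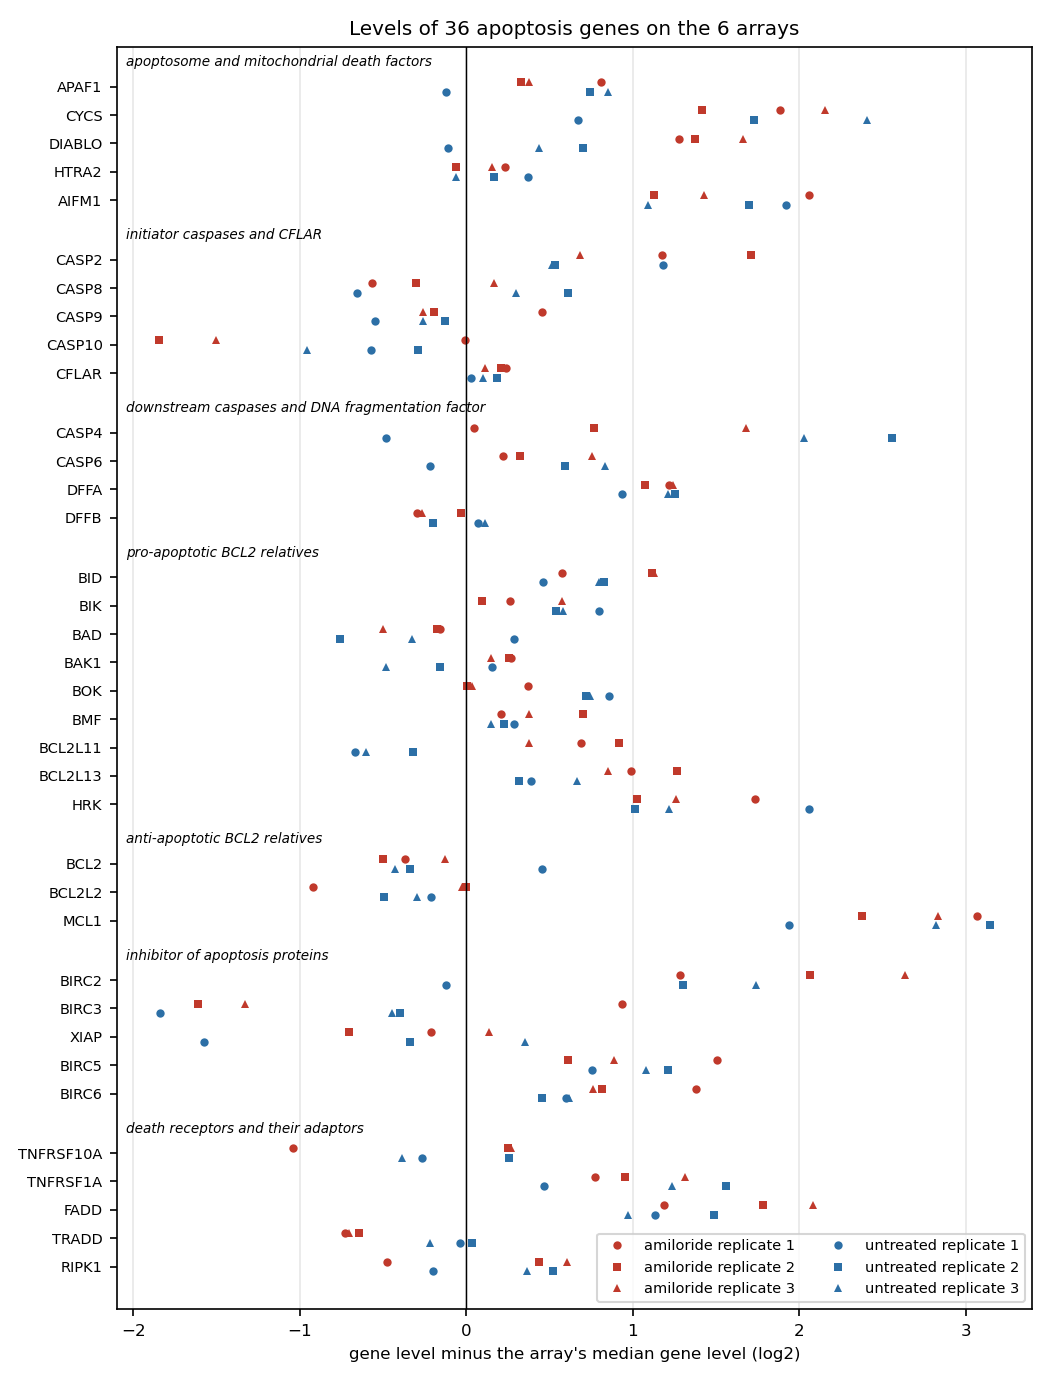
Level of each of the 36 genes on the 6 arrays, as the gene level minus the median gene level of the same array (log2, horizontal axis), with amiloride arrays in red above untreated arrays in blue and the marker shape giving the replicate number; levels of different genes are not comparable. The amiloride and untreated points are apart for DIABLO, BCL2L11, BCL2L13 and BIRC6, which were higher, and for BOK and TRADD, which were lower.

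Among the 5 apoptosome and mitochondrial death factors, DIABLO had the widest difference. Its levels were 6.65, 5.27 and 5.80 on amiloride replicates 1, 2 and 3, against 5.11, 4.53 and 4.58 on untreated replicates 1, 2 and 3. Every amiloride array was above every untreated array. The difference was 1.17, or 2.25-fold, with a 95% interval of -0.18 to 2.51, and 0.55 to 1.79 with the block (unadjusted p = 0.00275, adjusted p = 0.170, limma).

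The other 4 genes of the group differed little on average. CYCS, the electron carrier that nucleates the apoptosome, had levels of 7.25, 5.32 and 6.29 under amiloride and 5.89, 5.55 and 6.55 without it. Only replicate 1 was higher under amiloride, and the mean difference was 0.29. APAF1, the scaffold of the apoptosome, had levels of 6.18, 4.23 and 4.51 on the amiloride arrays and 5.10, 4.57 and 4.99 on the untreated ones, and again only replicate 1 was higher. HTRA2, a mitochondrial serine protease, and AIFM1, a flavoprotein linked to caspase-independent death, differed by 0.02 and 0.04. The pairs of AIFM1 disagreed, at 0.28, -0.50 and 0.33. The median difference of the group was 0.09, and 3 of its 5 genes lay above the median of all genes.

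The 18 probe sets of DIABLO did not move alike. In the order of their numbers on the array design, which was read after the values were seen, the first 10 (3475512 to 3475530) were each higher under amiloride, by 1.42 to 3.09, and each was higher in all 3 same-numbered pairs of arrays. Their median values were 6.96, 5.73 and 6.69 on the amiloride arrays and 5.01, 4.78 and 4.72 on the untreated arrays, so the groups did not overlap. The run was cut on these same values, so its shared direction is no separate support. The top of the range rests on low values of untreated replicate 1. Probe set 3475524 (3.09) was at 0.85 there, against 3.32 and 4.01 on untreated replicates 2 and 3. For 3475520 (2.71) these values were 1.53, against 4.94 and 4.46.

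The last 8 probe sets of DIABLO (3475531 to 3475539) differed by -0.86 to 1.35, with a median of -0.39, and 6 of the 8 were below 0. Their median values were 5.61, 4.67 and 4.55 on the amiloride arrays and 6.19, 4.15 and 4.48 on the untreated ones, which overlap. The exception was probe set 3475535, at 5.28, 4.76 and 4.56 under amiloride against 4.25, 3.24 and 3.04 without it. Where along the transcript these probe sets lie is not analysed here. Because the gene level is a median over both runs, the difference of 1.17 lies below that of every probe set in the first run.

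The split can be read in a Pearson correlation between the groups' mean values over a gene's probe sets, the form in which the study's correlation criterion was computed here. It was 0.54 for DIABLO, the only one of the 36 genes below the study's limit of 0.7, and 1.93% of the 18674 genes examined had a lower one. The median over all genes was 0.93. The probe set of DIABLO with the smallest p for the splicing index was 3475533, at 7.08, 5.80 and 6.24 under amiloride and 8.20, 6.16 and 6.58 without it. Its index was lower by 1.77 (SE 0.41, adjusted p = 0.947, limma), which did not pass the test. The probe set itself differed by -0.60, and the remainder is the rise of 1.17 in the gene level that is subtracted from it.

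**Figure D2:**
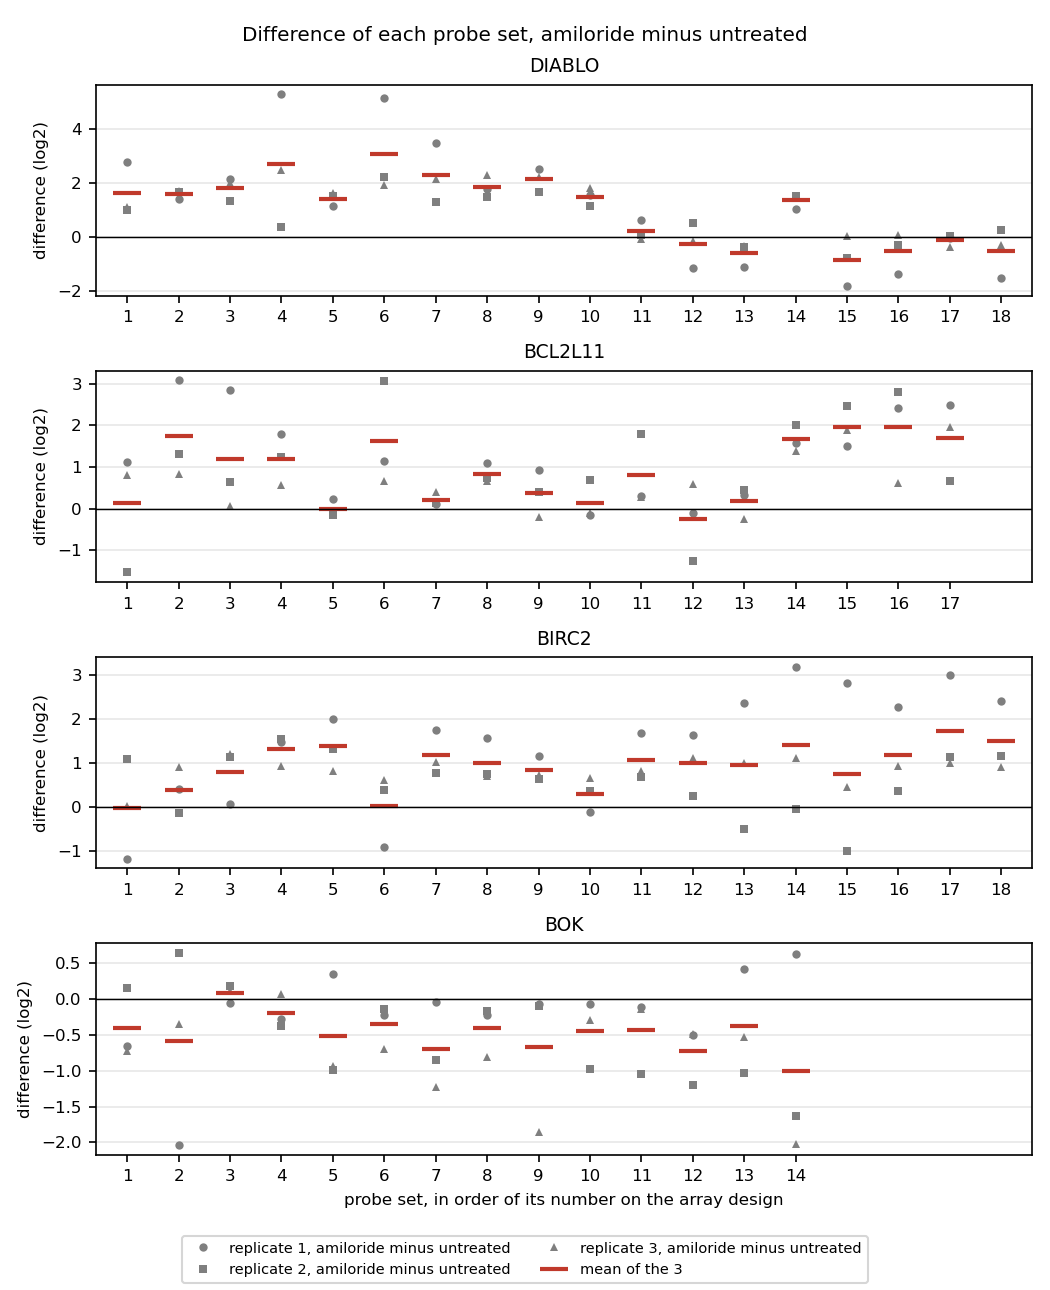
Difference of each kept probe set of DIABLO, BCL2L11, BIRC2 and BOK (log2, amiloride minus untreated, vertical axis) in the order of the probe set numbers, with grey points for the 3 same-numbered pairs of arrays and a red bar for their mean. DIABLO's first 10 bars lie between 1.42 and 3.09 and its last 8 between -0.86 and 1.35, BIRC2 has 17 of 18 bars above 0, and BOK has 13 of 14 below 0.

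Among the 9 pro-apoptotic BCL2 relatives, BCL2L11 had the largest difference of the 36 genes. Its levels were 6.06, 4.81 and 4.51 on the amiloride arrays against 4.55, 3.51 and 3.54 on the untreated arrays. Each amiloride array was above its same-numbered untreated array, by 1.51, 1.31 and 0.97, while amiloride replicate 3 lay just under untreated replicate 1, the brightest untreated array. The difference was 1.26, or 2.40-fold, with an interval of -0.08 to 2.61. With the block the interval was 0.68 to 1.85 and the adjusted p was 0.158 in limma. Measured from each array's median gene, the groups did not overlap. The difference was 0.81 without amiloride replicate 1 and 1.61 without untreated replicate 1, and taken from the median of all genes it lay between 1.09 and 1.36 with any 1 array left out.

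BCL2L11 also varied along its probe sets, in runs likewise cut after the values were seen. The last 4 of 17 by number (2500306 to 2500309) were higher by 1.66 to 1.95, with medians of 7.92, 6.16 and 5.41 on the amiloride arrays and 5.91, 4.53 and 4.12 on the untreated arrays, and each was higher in all 3 pairs. The 7 probe sets before them (2500299 to 2500305) differed by -0.26 to 0.83, with medians of 4.61, 3.23 and 3.15 under amiloride and 4.28, 3.12 and 3.12 without it. Numbers 2 to 4 (2500279 to 2500281) were also higher, by 1.18 to 1.74, each in all 3 pairs. The last run was higher throughout under amiloride, and the medians of the 7 probe sets before it were nearly level. The brightest probe set, 2500292, had values of 11.52, 9.42 and 9.55 under amiloride and 11.27, 9.58 and 9.65 without it. It followed the brightness of the arrays and not the treatment, so that its splicing index was lower by 1.27 (SE 0.34, adjusted p = 0.947). BCL2L11 makes several isoforms of BIM by alternative splicing, and which of them each probe set reads was not tested.

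BCL2L13, a BCL2-related protein of the outer mitochondrial membrane, had levels of 6.35, 5.16 and 4.99 under amiloride and 5.61, 4.14 and 4.81 without it. It was higher in all 3 pairs, by 0.75, 1.02 and 0.18, though the groups overlap. The difference was 0.65, or 1.57-fold (unadjusted p = 0.0448 and adjusted p = 0.312 with the block, limma), and it was 0.22 without amiloride replicate 1, 0.29 without untreated replicate 2 and 0.98 without untreated replicate 1. Taken from the median of all genes the difference lay between 0.45 and 0.69 with any 1 array left out. Of its 20 probe sets 16 were higher and 4 lower.

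BOK, a relative of BAX that can permeabilise the outer membrane, had the most negative difference of the 36. Its levels were 5.74, 3.91 and 4.17 under amiloride and 6.08, 4.54 and 4.88 without it. It was lower in all 3 pairs, although the brighter amiloride replicate 1 lay above untreated replicates 2 and 3, and 13 of its 14 probe sets were lower. The difference was -0.56 (unadjusted p = 0.0513 with the block), and it was -1.13 without amiloride replicate 1 and -0.11 without untreated replicate 1. Taken from the median of all genes it lay between -0.75 and -0.56 with any 1 array left out. From each array's median gene, BOK was at 0.14 ± 0.20 under amiloride and 0.77 ± 0.08 without it (SD, n = 3 each), with no overlap.

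The remaining pro-apoptotic relatives differed less. BAK1, which forms the pores of the outer membrane, was higher in all 3 pairs, with levels of 5.64, 4.16 and 4.29 under amiloride and 5.37, 3.67 and 3.66 without it, a difference of 0.46. BID, which caspase-8 cleaves to link the routes, and BMF, a BH3-only protein, were likewise higher in all 3 pairs, by 0.31 and 0.28 on average, and BIK, another BH3-only protein, was lower in all 3 by 0.26. Neither BAD, whose activity is governed by phosphorylation, nor HRK, a BH3-only protein best known from neurons, differed by more than 0.06 on average. The pairs of BAD disagreed, at -0.29, 0.66 and -0.19. The median of the 9 was 0.28 and 5 of them lay above the median of all genes.

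The plot of levels array by array sets these genes beside others whose pairs disagreed. Over the whole set, 11 of 36 genes (30.6%) were higher in all 3 pairs, against 26.4% of all genes, and BIK, BOK and TRADD (8.33%) were lower in all 3, against 11.5% of all genes. Groups without overlap in the values as deposited were found for DIABLO and BIRC2, both higher, which is 5.56% against 6.68% of all genes, and for no lower gene, against 0.188%. Relative to the array's median gene the groups were apart for 4 higher genes, DIABLO, BCL2L11, BCL2L13 and BIRC6 (11.1%, against 11.9% of all genes), and for 2 lower ones, BOK and TRADD (5.56%, against 7.05%). None of these shares was far from that on the whole array.

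**Figure D3:**
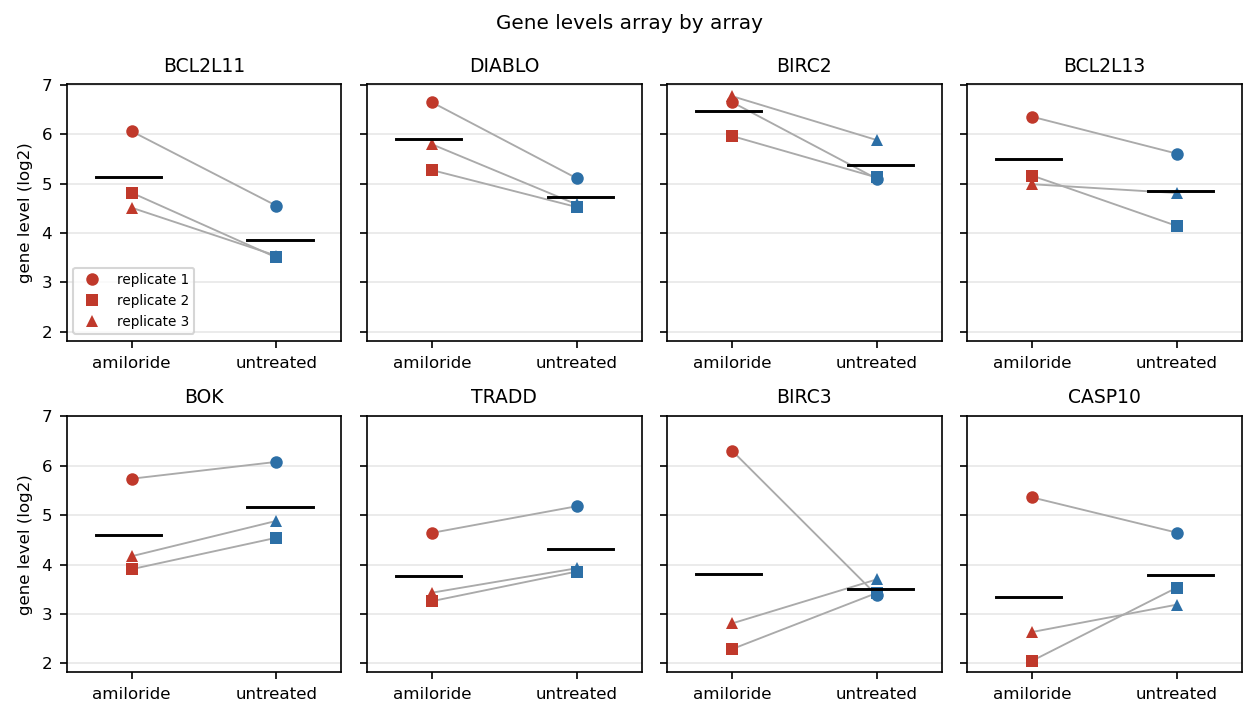
Gene levels (log2, vertical axis) of 8 genes under amiloride (red, left) and without it (blue, right), with marker shapes for the replicate number, grey lines joining same-numbered arrays and black bars for the group means. BCL2L11, DIABLO, BIRC2 and BCL2L13 were higher under amiloride in all 3 pairs and BOK and TRADD lower in all 3, while for BIRC3 and CASP10 the replicate 1 line runs against the other 2.

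The inhibitor of apoptosis proteins carry the BIR domain, and several act as ubiquitin ligases. BIRC2, known as cIAP1, ubiquitinates RIPK1 in the TNF receptor complex. Its levels were 6.65, 5.96 and 6.77 under amiloride against 5.10, 5.12 and 5.88 without it. All 3 amiloride arrays were above all 3 untreated arrays, by a narrow margin between amiloride replicate 2 and untreated replicate 3. The difference was 1.09, or 2.13-fold, with an interval of -0.25 to 2.44, and 0.47 to 1.71 with the block (unadjusted p = 0.00393, adjusted p = 0.170, limma).

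BIRC2 was more even along its probe sets than DIABLO. Of its 18 probe sets, 17 were higher under amiloride and 11 were higher in all 3 pairs, with differences between -0.02 and 1.71, and the correlation between the groups over its probe sets was 0.96. Relative to the array's median gene the groups overlapped, since amiloride replicate 1, at 1.28, lay under untreated replicates 2 and 3, at 1.30 and 1.74. Amiloride replicates 2 and 3 were at 2.06 and 2.63, and untreated replicate 1 was at -0.12. Taken from the median of all genes, the difference was 0.47 without untreated replicate 1 and between 0.72 and 1.39 with any other array left out.

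BIRC3, or cIAP2, a close relative of BIRC2, behaved otherwise. Its levels were 6.30, 2.29 and 2.81 on the amiloride arrays and 3.38, 3.42 and 3.70 on the untreated arrays. Amiloride replicate 1 was far above the other 5 arrays, and all 9 of its probe sets had their highest value there, while amiloride replicates 2 and 3 lay below every untreated array. The mean difference of 0.30 therefore rests on amiloride replicate 1, and without that array it was -1.22. Taken from the median of all genes it was then -0.84.

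BIRC6, a very large inhibitor with ubiquitin-conjugating activity, was read by 97 probe sets, of which 85 were higher under amiloride. Its levels were 6.75, 4.71 and 4.90 under amiloride and 5.82, 4.28 and 4.76 without it, a difference of 0.50 with each pair higher, which was -0.15 without amiloride replicate 1 and 0.93 without untreated replicate 1. For BIRC6 the difference taken from the median of all genes lay between 0.23 and 0.56 with any 1 array left out. XIAP, which binds caspases directly, and BIRC5, or survivin, which also serves in mitosis, were higher only in replicate 1, with differences of 0.33 and 0.06. The group had the highest median difference of the 7 roles, 0.33, with 4 of 5 genes above the median of all genes. Taken from the median of all genes this was 0.27, and it was -0.13 without untreated replicate 1.

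Higher in replicate 1 and lower in replicates 2 and 3 was a shared pattern. It held for 9 of the 36 genes (25%), namely APAF1, CYCS, CASP8, CASP10, CASP4, CASP6, BIRC3, XIAP and BIRC5, against 13.1% of all genes. The opposite pattern held for HRK, BCL2L2 and TNFRSF10A (8.33%), against 11.1% of all genes. Replicate 1 includes the untreated array that stood apart, and what part that array had in the pattern was not tested.

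The initiator caspases and their inhibitor showed no common direction. CASP2, an initiator activated on its own platform, was higher in all 3 pairs, at 6.54, 5.61 and 4.82 under amiloride and 6.40, 4.36 and 4.66 without it, but only replicate 2 differed by more than 1. Its mean difference was 0.52, and it was 0.08 without amiloride replicate 1, 0.13 without untreated replicate 2 and 1.15 without untreated replicate 1. Taken from the median of all genes it lay between 0.18 and 0.72 with any 1 array left out. CASP10 had levels of 5.36, 2.05 and 2.63 under amiloride and 4.64, 3.53 and 3.19 without it, so that replicates 2 and 3 were lower and replicate 1 higher. Its difference of -0.44 was -1.54 without amiloride replicate 1 and 0.19 without amiloride replicate 2. Taken from the median of all genes it lay between -1.16 and -0.17 with any 1 array left out. CASP9, the caspase of the apoptosome, differed by 0.38, with pair differences of 1.15, 0.01 and -0.01. CFLAR differed by 0.15 and CASP8 by -0.25. The median of the 5 was 0.15.

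The downstream caspases and the DNA fragmentation factor were represented by 4 genes. CASP4, which is an inflammatory caspase that senses bacterial lipopolysaccharide, had levels of 5.41, 4.67 and 5.82 under amiloride and 4.74, 6.38 and 6.17 without it. Replicate 2 was the furthest apart, and 10 of its 12 probe sets were lower. The mean difference was -0.47, and it was -0.16 without untreated replicate 2 and -0.99 without untreated replicate 1. Taken from the median of all genes it lay between -1.48 and 0.07 with any 1 array left out. DFFB, the nuclease that cuts DNA between nucleosomes, had levels of 5.07, 3.87 and 3.87 under amiloride and 5.29, 3.63 and 4.26 without it, a difference of -0.12 with overlapping groups. CASP6 and DFFA, the inhibitor and chaperone of DFFB, differed by 0.10 and 0.12, and the median of the 4 was -0.01.

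The anti-apoptotic BCL2 relatives differed little on average, but their pairs disagreed. MCL1, a short-lived guardian of the mitochondrial membrane, had levels of 8.43, 6.27 and 6.97 under amiloride and 7.15, 6.97 and 6.96 without it. Replicate 1 was higher, replicate 2 lower and replicate 3 level, and the mean difference was 0.20. BCL2 had levels of 5.00, 3.40 and 4.01 under amiloride and 5.67, 3.49 and 3.72 without it, a difference of -0.16. BCL2L2, or BCL-W, differed by 0.09, with pair differences of -0.56, 0.57 and 0.26. The interval of each reaches 1.35 to either side in the first fit, so a difference of 1 in these genes was not detectable in it.

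Death receptors and their adaptors had a median difference of 0.03, and 1 of 5 lay above the median of all genes. That gene was FADD, the adaptor that brings caspase-8 to the receptor, with levels of 6.55, 5.68 and 6.22 under amiloride and 6.35, 5.31 and 5.12 without it. Each pair was higher under amiloride and the groups overlapped, with a difference of 0.56 (unadjusted p = 0.0814 with the block), which was 0.32 without untreated replicate 3 and 0.94 without untreated replicate 1. TRADD, the adaptor of TNFRSF1A, had a gene level lower in all 3 pairs by similar amounts, with pair differences of -0.54, -0.60 and -0.49. Its levels were 4.64, 3.26 and 3.43 under amiloride and 5.18, 3.86 and 3.92 without it. Its single probe sets were less even: 6 of the 8 were lower on average and 2 higher, and 0 of the 8 were lower in all 3 pairs. With the mean over probe sets in place of the median, the difference was -0.21. From the array's median gene TRADD was at -0.69 ± 0.04 under amiloride and -0.08 ± 0.13 without it (SD, n = 3 each), with no overlap, yet with the block its unadjusted p was 0.0526 in limma. Its difference of -0.54 was -1.003 without amiloride replicate 1 and -0.11 without untreated replicate 1. Taken from the median of all genes it lay between -0.70 and -0.55 with any 1 array left out. For FADD that range was 0.31 to 0.73. The receptors TNFRSF10A and TNFRSF1A and the kinase RIPK1 differed by at most 0.03 on average. Their pairs disagreed, at -0.63, 0.07 and 0.65 for TNFRSF10A and 0.46, -0.53 and 0.07 for TNFRSF1A.

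**Figure D4:**
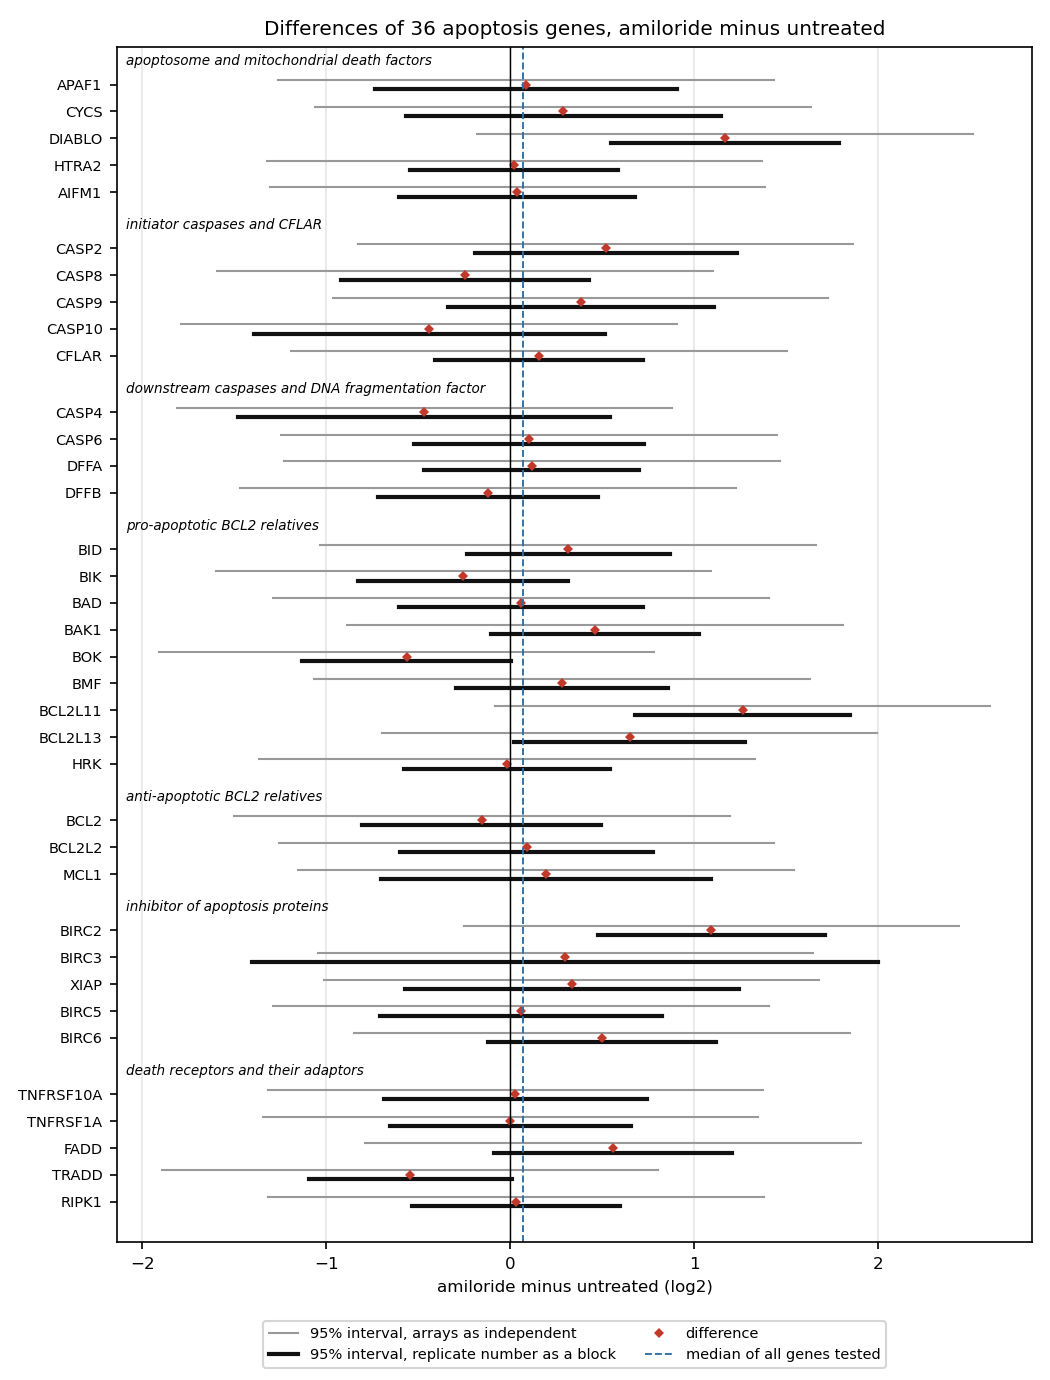
Difference of each gene (red diamonds, log2, amiloride minus untreated, horizontal axis) with 95% intervals from the fit of the arrays as independent samples (grey) and with the replicate number as a block (black), the dashed line marking the median of all genes. Every grey interval includes 0, and the black ones exclude it for DIABLO, BCL2L11, BCL2L13 and BIRC2.

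Because the calls depend on how the arrays are brought to one brightness, the levels were also compared after quantile normalization. There 0 of 36 genes passed adjustment, against 0.0117% of all genes higher and 0% lower, and the smallest adjusted p was 0.157, for BCL2L11. Unadjusted p-values below 0.05 were reached by BCL2L11, DIABLO and BCL2L13, higher (8.33%, against 13% of all genes), and by BOK and TRADD, lower (5.56%, against 1.14% of all genes). After this step BCL2L11 differed by 1.31 and DIABLO by 1.20, close to the values without it.

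The promoters of the 3 genes with the largest differences are shown, although none of the 3 passed adjustment with or without the block. They were taken from RefSeq on build GRCh38.p14 as the 300 bases around the annotated start. Of the 36 genes 28 had an entry. Capitals mark matches, on either strand, to any of 8 motifs, and no match overlaps another in these windows.
BCL2L11 promoter, chr2:111120664-111120963, plus strand: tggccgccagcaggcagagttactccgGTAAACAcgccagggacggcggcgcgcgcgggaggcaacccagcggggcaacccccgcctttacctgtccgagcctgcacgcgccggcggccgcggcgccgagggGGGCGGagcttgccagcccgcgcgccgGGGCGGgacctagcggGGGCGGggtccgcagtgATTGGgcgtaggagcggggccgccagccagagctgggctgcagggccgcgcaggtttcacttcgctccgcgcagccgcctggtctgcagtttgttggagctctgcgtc
DIABLO promoter, chr12:122226519-122226818, minus strand: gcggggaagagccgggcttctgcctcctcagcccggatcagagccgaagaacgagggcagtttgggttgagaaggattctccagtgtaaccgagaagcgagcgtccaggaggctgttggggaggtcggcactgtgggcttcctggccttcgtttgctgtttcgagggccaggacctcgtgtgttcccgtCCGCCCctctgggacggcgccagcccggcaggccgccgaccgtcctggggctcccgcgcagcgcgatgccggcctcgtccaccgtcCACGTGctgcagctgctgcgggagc
BIRC2 promoter, chr11:102346964-102347263, plus strand: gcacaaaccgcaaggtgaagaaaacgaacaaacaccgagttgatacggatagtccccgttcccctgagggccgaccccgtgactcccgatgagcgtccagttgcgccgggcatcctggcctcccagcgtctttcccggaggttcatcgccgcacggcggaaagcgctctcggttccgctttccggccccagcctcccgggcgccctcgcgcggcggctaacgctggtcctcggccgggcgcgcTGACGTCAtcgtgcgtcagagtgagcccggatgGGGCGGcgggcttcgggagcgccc
The motifs searched were the E box CACGTG, found in 7.43% of the 27305 promoters in the table, the cAMP response element TGACGTCA in 1.98%, the AP-1 site TGAGTCA in 4.92%, the forkhead site GTAAACA in 3.41%, the GC box GGGCGG in 44.6%, the CCAAT box CCAAT in 35.7%, the TATA box TATAAA in 12% and the C/EBP-ATF element TGATGCAA in 0.923%. Of the 28 promoters, 21 held the GC box and 13 the CCAAT box. BCL2L11 held the only forkhead match, BIRC2 the only cAMP response element and DIABLO 1 of the 2 E boxes. The 3 promoters shared the GC box and no other motif of the 8. These are letter matches and not binding sites.

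For alternative splicing, the splicing index was tested over 269283 probe sets. Of the 631 probe sets of the apoptosis genes, 0 had an adjusted p below 0.05 in limma, as was the case for 0% of all probe sets, in either direction and with or without the block. At an unadjusted p below 0.05, 16 were higher and 27 lower, which is 2.54% and 4.28% of the 631 against 1.85% and 2.72% of all. With the block the counts were 22 and 31 (3.49% and 4.91%, against 2.24% and 3.18%). In the 14 genes given with every array by the selection rule, the probe set of smallest p had an index difference between -1.77, in DIABLO, and 1.26, in CASP10, each with an adjusted p of 0.947. DIABLO held 8 of the 43 unadjusted calls and BCL2L11 5, the genes whose probe sets fell into runs. In both, the rise of the gene level lowers the index of any probe set that did not rise as much. The index did not overlap between groups for 37 higher and 54 lower probe sets, 5.86% and 8.56% against 5.03% and 5.79% of all. After quantile normalization 17 of 629 were higher and 25 lower at an unadjusted p below 0.05, 2.7% and 3.97% against 1.93% and 2.62% of all, and 0 passed adjustment, as did 0% of all. Without overlap were then 39 and 51, 6.2% and 8.11% against 5.13% and 5.7%.

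The probe set values themselves were set against the median gene of each array in the same way. Of the 631, 69 were higher without overlap and 26 lower, 10.9% and 4.12% against 8.98% and 6.02% of all probe sets. DIABLO had 11 of the higher ones, BCL2L13 9, BCL2L11 8 and BIRC6 20 of its 97. Without DIABLO, BIRC2 and BCL2L11 the share of higher ones was 8.48% and that of lower ones 4.33%. Those genes had the largest gene-level differences, so a fall in the higher share was built into leaving them out.

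BMF and CFLAR gave further probe sets of this kind, named after their values were seen. BMF probe set 3619239 had values of 5.54, 4.66 and 5.26 under amiloride and 4.62, 3.07 and 3.12 without it, with an index higher by 1.27 (SE 0.32, adjusted p = 0.947, limma). CFLAR, which makes long and short forms of cFLIP by splicing, had probe set 2522638 at 7.68, 5.73 and 6.31 under amiloride and 6.41, 3.95 and 4.91 without it, with an index higher by 1.33 (SE 0.38, adjusted p = 0.947). Both were higher in each pair, and neither passed the test.

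The study called a splicing event from 3 criteria without a test: the correlation of at least 0.7, a splicing index of at most minus log2 of 3, and a log2 ratio of the same size. The sources used here do not give every step of their computation, so calls made by the study itself can be others than those counted here. Applied to all 723 probe sets, with no filter on dim ones, they were met by 3 (0.415%, against 0.394% of all probe sets), in CASP2, BIK and AIFM1. Mirrored for higher values they were met by 2 (0.277%, against 0.222%), in CASP9 and BMF. DIABLO could not qualify, because its correlation lay below 0.7.

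Most of these 5 were dim. AIFM1 probe set 4021495 had log2 values of 0.47, 0.00 and 0.86 under amiloride and 2.90, 1.95 and 2.40 without it, and BIK probe set 3947616 had 0.00, 1.5 and 1.19 against 1.85, 4.51 and 2.89. BMF probe set 3619243 was at 4.09, 3.58 and 3.32 under amiloride and 1.58, 2.32 and 1.00 without it, and CASP9 probe set 2397701 at 4.92, 3.30 and 2.64 against 1.70, 0.67 and 2.87. The groups were apart for AIFM1, BIK and BMF and overlapped for CASP9, and the mean of all 4 probe sets lay under the filter of 2.80. The only one above the filter was CASP2 probe set 3029038, with 5.30, 3.56 and 2.60 under amiloride and 4.34, 10.80 and 3.14 without it. A single array, untreated replicate 2, carries that difference, and when it was left out the 3 criteria were not met.

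**Figure D5:**
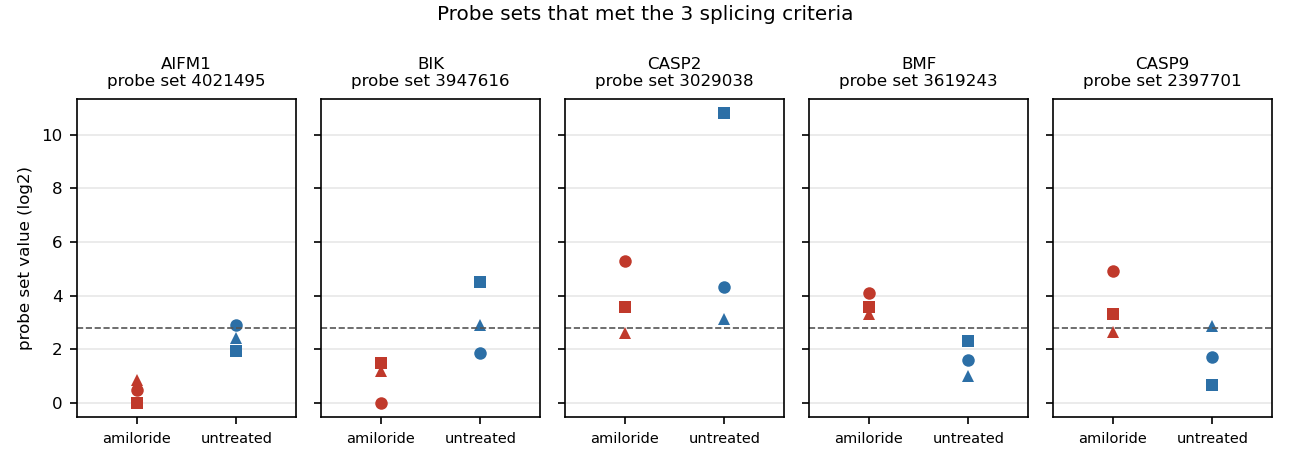
Log2 values (vertical axis) of 5 probe sets of the apoptosis genes on the amiloride arrays (red, left) and untreated arrays (blue, right). Those in AIFM1, BIK and CASP2 met the study's 3 criteria, and those in BMF and CASP9 met them mirrored for higher values. Circles, squares and triangles stand for replicates 1, 2 and 3, and the dashed line for the filter of 2.80. CASP2 has 1 untreated value of 10.80 with the other 5 values between 2.60 and 5.30.

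Genes of the wider pathway were read from a list of 51, of which 47 were measured. With limma 0 of 47 had an adjusted p below 0.05, 1 was higher at an unadjusted p below 0.05 and none was lower, against 1.63% and 0.0705% of all genes, and with the block 7 were higher and none lower, against 13.6% and 1.6% of all genes. Their median difference was 0.21 beside 0.07 over all genes, and 25 of 47 lay above it. VDAC2, a channel of the outer mitochondrial membrane that binds BAK1, had levels of 8.46, 7.63 and 8.02 under amiloride and 6.31, 6.83 and 6.82 without it, a difference of 1.38 with no overlap (unadjusted p = 0.0443). TNFRSF10D, a decoy receptor for the death ligand TRAIL, differed by 1.15, at 7.20, 6.40 and 6.52 under amiloride against 6.53, 5.32 and 4.83 without it. Amiloride replicates 2 and 3 lay just under untreated replicate 1, and each same-numbered pair was higher under amiloride.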

How the data were processed

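Total RNA of Huh-7 cells was hybridised to Human Exon 1.0 ST arrays, 3 per group. The authors normalized the probe set values in dChip with background probes, mapped them on hg18 and deposited them as intensity values, 1 per probe set and array. Those intensities were taken to log2 here after a floor of 1, and gene symbols came from the platform annotation, with 2966 older symbols brought to their current form and 15322 probe sets with several symbols left out. Gene levels and splicing indices were fitted with limma 3.58.1 in R 4.3.3, amiloride against untreated, over all genes or probe sets, and p-values were adjusted after Benjamini-Hochberg and called below 0.05. With 3 arrays against 3, an exact permutation test of 1 value cannot go below p = 0.1. The number of arrays limits the precision. The members and lists were chosen with earlier results of these data known. Given with every array were, in each role, the 2 genes of smallest p and any gene without overlap, their probe set of smallest p, and any probe set past the study's criteria; others were chosen after the values were seen.

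The deviations of same-numbered arrays from their group means correlated at 0.184, 0.087 and 0.278 over genes and at 0.161, 0.194 and 0.317 over probe sets, so the numbers were taken to pair the arrays, with 1 gene-level value under 0.1. Alternatives were quantile normalization, median centring, 16 added in place of the floor, other filters, the mean over probe sets, the replicate block, array weights and each array left out. The fits were tested on simulated data. Figures were drawn with matplotlib 3.10.9.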

Additional observations from a re-analysis of the deposited data

How the results depend on the processing

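No apoptosis gene passed adjustment under any alternative except array weights. There 28 of the 36 did, with 13280 of all genes, but the weights were 0.06, 0.22 and 123 for amiloride replicates 1, 2 and 3 and 0.0741, 0.21 and 39.5 for the untreated ones, so that fit rests on replicate 3 of each group. With array weights BCL2 turned to 0.29 and CYCS to -0.25, following replicate 3. The replicate block left the count at 0, with a smallest adjusted p of 0.158, and quantile normalization with the block gave 0.0995. With 1 array left out, 0 genes passed each time, and no splicing index passed under any alternative. Probe sets past the study's criteria were counted as lower and those past the mirrored criteria as higher. They numbered 1 lower and 0 higher with 16 added (0.0438% and 0.00842% of all probe sets). The filter gave 1 lower and 0 higher (0.182% and 0.152%). With 1 array left out they numbered 3 to 6 lower and 1 to 8 higher, both the most without untreated replicate 3, when 1.01% and 0.813% of all probe sets met them. The median of the inhibitor of apoptosis proteins relative to all genes was -0.13 to 0.56 with 1 array left out, the lowest without untreated replicate 1, and -0.147 after quantile normalization without untreated replicate 1. Signs were read against 0 for the 14 genes given with every array. They turned under at least 1 alternative for BCL2, DFFB, CYCS, CASP10, MCL1, BIRC6 and TRADD, and for none of the others. TRADD turned with the filter at the 75th percentile, at 0.22. With 1 array left out, BIRC6, CASP10, DFFB and TRADD kept their sign against the median of all genes. CASP4 ranged there from -1.48 to 0.07, and BCL2, CYCS and MCL1 turned there too. The causes were not tested. The gene-level standard error was 0.687, and leaving out 1 array moved the median difference of all genes between -0.38 and 0.49.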
